A study of Mus musculus with 12 samples.

Results

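Malat1, Neat1, Miat, Meg3, Rmst, Kcnq1ot1, Sox2ot, Snhg11, Snhg1 and Gas5 are long noncoding RNAs that act in the nucleus or host small nucleolar RNAs (snoRNAs). They were taken by symbol, 10 of the 52550 genes in the deposited tables. All 10 passed the filter on low counts, among 18458 genes tested. RNA immunoprecipitation followed by sequencing (RIP-seq) had been done on wild-type C57BL/6 mice, from retina at postnatal day 0 and from cortex at embryonic day 12.5. The groups were retina Ythdf1 immunoprecipitate (IP), retina Ythdf2 IP, retina input, cortex Ythdf1 IP, cortex Ythdf2 IP and cortex input, each with 2 libraries. Every group was untreated and carried no engineered allele, and the input is the RNA before any antibody was added. No IP with an unrelated antibody was analysed here, and tissue and age change together, so they cannot be told apart.

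Ythdf1 and Ythdf2 are readers of N6-methyladenosine (m6A), a methyl mark on adenosines of mRNA and long noncoding RNA. Both proteins sit in the cytoplasm, where Ythdf1 is known for promoting translation and Ythdf2 for speeding decay. Malat1 lies in nuclear speckles, Neat1 builds paraspeckles, Miat is retained in the nucleus of neural cells, Meg3 and Kcnq1ot1 come from imprinted domains, and Rmst and Sox2ot are tied to the neural transcription factor Sox2. Snhg11, Snhg1 and Gas5 carry snoRNAs in their introns, and spliced Gas5 and Snhg1 leave the nucleus and are degraded when ribosomes reach an early stop codon.

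The m6A mark is written most often in the letters GGACT, read on the RNA strand with the A as the methylated base. For the RNAs on which the results turn, the 120 bases around the richest GGACT site of the longest annotated transcript are shown, each inside 1 exon, with GGACT in capitals (GENCODE M21 transcripts, GRCm38). They run 5′ to 3′ on the transcript strand. The first 4 belong to the RNAs called lower in the retina Ythdf1 IP, Miat is the RNA with the largest positive fold over input, and Malat1 is the most abundant. The Meg3 window is chr12:109549687-109549806 (plus strand), the Kcnq1ot1 window chr7:143219812-143219931 (minus strand), the Sox2ot window chr3:34678080-34678199 (plus strand), the Gas5 window chr1:161035896-161036015 (plus strand), the Miat window chr5:112217046-112217165 (minus strand) and the Malat1 window chr19:5801407-5801526 (minus strand).
Meg3: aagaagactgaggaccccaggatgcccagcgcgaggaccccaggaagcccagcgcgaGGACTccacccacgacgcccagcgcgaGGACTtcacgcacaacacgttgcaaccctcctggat
Kcnq1ot1: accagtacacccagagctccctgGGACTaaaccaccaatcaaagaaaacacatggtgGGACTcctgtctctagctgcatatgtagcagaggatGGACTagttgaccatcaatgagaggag
Sox2ot: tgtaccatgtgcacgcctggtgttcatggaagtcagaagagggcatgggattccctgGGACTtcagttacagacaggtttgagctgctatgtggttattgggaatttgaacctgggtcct
Gas5: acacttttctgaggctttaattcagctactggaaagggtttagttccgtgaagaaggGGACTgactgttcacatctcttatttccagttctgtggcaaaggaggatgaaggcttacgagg
Miat: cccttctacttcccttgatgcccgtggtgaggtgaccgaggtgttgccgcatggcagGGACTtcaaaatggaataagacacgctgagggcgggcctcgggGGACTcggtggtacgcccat
Malat1: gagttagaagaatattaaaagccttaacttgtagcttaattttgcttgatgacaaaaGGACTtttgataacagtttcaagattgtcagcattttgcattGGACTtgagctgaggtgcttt
The Kcnq1ot1 window holds 3 GGACT sites, those of Meg3, Miat and Malat1 hold 2, and those of Sox2ot and Gas5 hold 1. Cut end to end, 120-base windows of the longest transcript of the genes tested held GGACT in 11.6% of cases and 2 or more in 0.774%. The windows shown were picked for their GGACT sites, so their counts cannot be read against these shares.

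Over whole transcripts, Miat had 19 GGACT sites in 9163 bases, or 2.07 per kb, which is denser than in 90.6% of 18426 genes with a transcript. Snhg11 followed with 11 sites at 1.88 per kb and Rmst with 5 at 1.73 per kb. Sox2ot had 1 site in 3486 bases (0.287 per kb) and Snhg1 1 in 2728 bases (0.367 per kb), lower than most genes, whose median was 0.995 per kb. Malat1 (9 sites, 1.29 per kb), Gas5 (3 sites, 1.17 per kb), Neat1 (23 sites, 1.11 per kb), Meg3 (16 sites, 1.10 per kb) and Kcnq1ot1 (80 sites, 0.859 per kb) lay nearer that median. Read backwards as AGTCC, the same letters on the other strand, the motif occurred 66 times in Kcnq1ot1 and 3 times in Malat1. A match describes letters only, since methylation was not measured.

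The RNAs differ widely in build. Malat1 (chr19:5795690-5802672) and Neat1 (chr19:5824708-5845478) are single-exon neighbours on the minus strand, and Kcnq1ot1 (chr7:143203458-143296549, minus strand) is a single exon of 93092 bases antisense to Kcnq1, a potassium channel gene. Sox2ot (chr3:34104270-34682619, plus strand) spans 578350 bases and contains the Sox2 gene in an intron. Rmst (chr10:92071037-92165170, minus strand), Meg3 (chr12:109541001-109571726, plus strand) and Miat (chr5:112213228-112229395, minus strand) are spliced, as are the hosts Snhg11 (chr2:158375638-158386145), Snhg1 (chr19:8723475-8726443) and Gas5 (chr1:161034422-161038539), all 3 on the plus strand. The annotation places 2 snoRNA genes in Snhg11, 8 in Snhg1 and 10 in Gas5. GENCODE M21 classes Snhg11 as protein-coding and the others as noncoding.

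Library totals were 19530226 to 40515980 counts, of which 1676910 to 13621485 fell in protein-coding genes, and the 10 RNAs together held 11438 to 186808 counts per library. Levels are normalised CPM, counts scaled to library sizes corrected by TMM (trimmed mean of M-values). The library labelled cortex input replicate 1 goes against its label. Mitochondrial ribosomal RNA took 71.0% of its counts, against 12.7% in the other cortex input. The sum of 7 mature forebrain neuron markers was 1419 CPM there and 13.6 to 55.0 CPM in the other 11 libraries, 4 oligodendrocyte markers summed to 1929 CPM against 4.16 to 22.9 CPM, and 7 neural progenitor markers to 39.1 CPM against 163 to 822 CPM. Cortex markers (6 genes) summed to 32.4 CPM in it and to 189 to 334 CPM in the other cortex libraries. The main results that use it are also given with that library left out, and the remaining cortex input is then a lone library assumed to vary like the other groups. The labelled tissue fitted the markers elsewhere, since 8 retina markers summed to 202 to 278 CPM in retina libraries and to at most 9.65 CPM in cortex libraries.

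Between the 10 RNAs, levels can be set against each other only per length, as the deposited FPKM. Malat1 ranked first in all 6 groups, with a mean of 31.8 ± 3.9 FPKM in retina Ythdf1 IPs, 55.0 ± 7.1 in retina Ythdf2 IPs, 204 ± 230 in retina inputs, 212 ± 121 in cortex Ythdf1 IPs, 639 ± 0.24 in cortex Ythdf2 IPs and 150 ± 146 in cortex inputs (SD, n = 2 each). Miat and Gas5 came next in every group. Kcnq1ot1 was last in the retina groups and the cortex input, and Snhg11 in both cortex IPs. In retina inputs Gas5 averaged 13.98 ± 6.81 FPKM and Miat 13.02 ± 4.61 FPKM (SD, n = 2), which do not differ beyond their spread. Below them came Snhg1 (3.06 ± 0.66) and Meg3 (2.30 ± 1.32), then Snhg11 (1.38 ± 0.62), each within the spread of its neighbour. Rmst (0.512 ± 0.037) and Sox2ot (0.248 ± 0.268) followed and differed by less than the Sox2ot SD. Neat1 (0.0560 ± 0.0115) and Kcnq1ot1 (0.0336 ± 0.0235) came last, and their means differed by less than the Kcnq1ot1 SD but by more than the Neat1 SD. Neat1 and Kcnq1ot1 are the longest of these RNAs, and both rested on few reads in the retina, 42 and 51 counts for Neat1 and 60 and 161 for Kcnq1ot1 in the inputs.

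**Figure D1:**
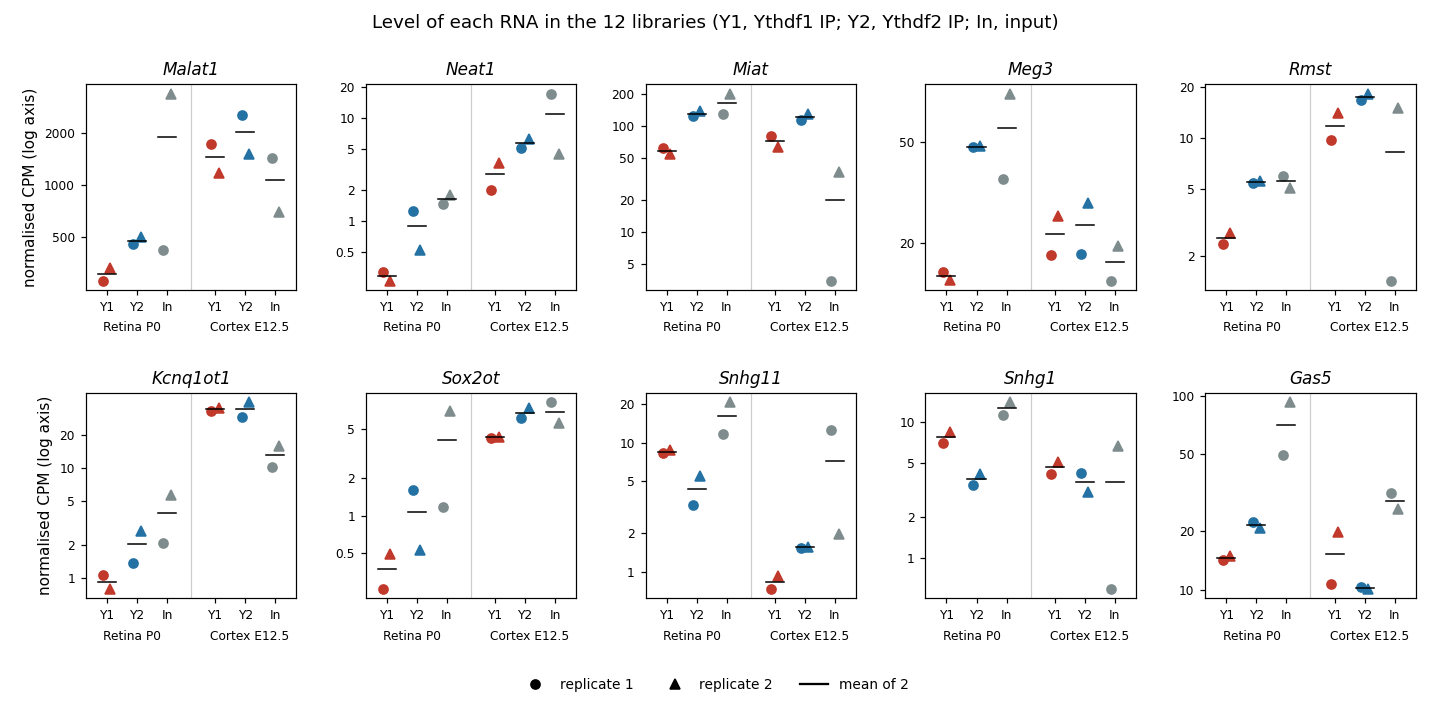
Normalised CPM on a log axis for each of the 10 RNAs in retina at postnatal day 0 (left of each panel) and cortex at embryonic day 12.5 (right), with Ythdf1 IP, Ythdf2 IP and input from left to right; circles are replicate 1, triangles replicate 2 and bars the mean of 2. In the retina both Ythdf1 IPs lie under both inputs in every panel, and in the cortex inputs the circle and triangle of Miat, Rmst and Snhg1 stand more than 10-fold apart.

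In the retina Ythdf1 IP, all 10 RNAs were lower than in the retina input. Kcnq1ot1, Meg3, Sox2ot and Gas5 fell 3.85- to 10.8-fold and passed the test across all genes. The edgeR quasi-likelihood test with Benjamini-Hochberg adjustment called 8.8% of all genes in this comparison at an adjusted p under 0.05, 5.23% as lower. Both IPs lay under both inputs for all 10 RNAs, as they did for 30.1% of all genes tested and 33.1% of 1747 long noncoding genes. The median log2 fold change of the 10 was -2.001, against 0.00 over all genes and -0.65 over long noncoding genes. The filter used all 12 libraries, so shares and medians over all genes, here and below, include genes with few retina counts. The 6 retina libraries alone kept 14380 genes, 834 of them long noncoding. The medians were then -2.09 for the 10, -0.07 over all genes and -0.80 over long noncoding genes.

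Among the RNAs of nuclear bodies, Malat1 had 276.5 and 327 CPM in the Ythdf1 IPs, against 417 and 3409 CPM in the retina inputs. The groups do not overlap, but the second input stood 8.18-fold above the first, and the log2 fold change of -2.66 ± 0.96 (SE) did not pass the test (edgeR adjusted p = 0.101). Neat1 had 0.322 and 0.264 CPM in the IPs, against 1.46 and 1.80 CPM in the inputs, that is 10 and 7 counts against 42 and 51. Its replicates lay close together, and its log2 fold change of -2.46 ± 0.73 just missed the threshold (edgeR adjusted p = 0.0565). Miat had 61.9 and 54.4 CPM in the IPs, against 131 and 201 CPM in the inputs, a log2 fold change of -1.51 ± 0.80 (edgeR adjusted p = 0.249).

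Of the imprinted RNAs, Meg3, the maternally expressed RNA of the Dlk1 domain, had 15.3 and 14.2 CPM in the Ythdf1 IPs, against 35.8 and 77.8 CPM in the inputs. Kcnq1ot1, which silences neighbouring genes on the paternal chromosome, had 1.06 and 0.793 CPM in the IPs, against 2.09 and 5.67 CPM in the inputs. For both, the IPs lay closer together than the inputs did. Meg3 fell by 1.95 ± 0.51 on the log2 scale (edgeR adjusted p = 0.0373) and Kcnq1ot1 fell by 2.06 ± 0.57 (edgeR adjusted p = 0.0464).

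Of the RNAs tied to Sox2, Sox2ot, whose locus surrounds that gene, had 0.257 and 0.491 CPM in the Ythdf1 IPs, against 1.18 and 6.90 CPM in the inputs, or 8 and 13 counts against 34 and 196. Sox2ot fell by 3.43 ± 0.83 on the log2 scale, the largest change of the 10 with all libraries (edgeR adjusted p = 0.0297). With retina input replicate 2 left out it was -1.65 ± 0.71, and Neat1 at -2.29 ± 0.84 was then the lowest. Rmst, which binds Sox2 protein, had 2.35 and 2.72 CPM in the IPs, against 5.98 and 5.07 CPM in the inputs. Its log2 fold change of -1.12 ± 0.74 did not pass (edgeR adjusted p = 0.349).

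All 3 snoRNA hosts lay under both inputs, and Gas5 alone passed the test. Gas5, a growth-arrest transcript and the host with most snoRNAs, had 14.2 and 14.9 CPM in the Ythdf1 IPs, against 49.5 and 93.0 CPM in the inputs, and fell by 2.29 ± 0.49 on the log2 scale (edgeR adjusted p = 0.0215), the smallest adjusted p of the 10. Snhg11 had 8.27 and 8.80 CPM in the IPs, against 11.6 and 20.6 CPM in the inputs. Snhg1 had 7.11 and 8.50 CPM in the IPs, against 11.3 and 14.1 CPM in the inputs. Neither passed the test, and whether the hosts differ from each other was not tested, with log2 fold changes of -0.92 ± 0.68 for Snhg11 and -0.70 ± 0.71 for Snhg1 (edgeR adjusted p = 0.407 and 0.565).

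These calls rest on few libraries. With retina input replicate 2 left out none of the 10 was called (0.83% of genes; 4 of the 10 at an unadjusted p under 0.05), the median log2 fold change was -1.197, and the Malat1 value was -0.46 ± 0.85. With retina input replicate 1 left out, 2 were called, Sox2ot and Gas5 (1.46% of genes). Leaving out either Ythdf1 IP ended every call, among the 10 and among all genes. Leaving out either retina Ythdf2 IP ended the calls of the 10 and left fewer calls among all genes. Leaving out a cortex IP left fewer calls among both. The library labelled cortex input replicate 1 is in neither group of this comparison but enters the filter, the scaling and the shared estimate of spread; with it left out 8 were called among 20278 genes tested, all but Snhg11 and Snhg1, when 27.1% of genes were. The 6 retina libraries alone called all 10 (37.6% of genes), as did the fit that left out cortex input replicate 2 (26.3% of genes), and DESeq2 called 6 (19.4% of genes). Under a term for the replicate number 3 were called (6.48% of genes), with Kcnq1ot1 at an adjusted p of 0.0575, and under a replicate term for each tissue none was (3.65% of genes). Over all alternatives the adjusted p of Kcnq1ot1 ran from 0.00243 to 1.00 and that of Gas5 from 9.29e-06 to 0.866. All 10 log2 fold changes stayed below 0 under TMM, DESeq2 size factors, library totals and protein-coding totals, although library totals called none.

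Among the 10 RNAs, the 2 retina inputs differed most in Malat1 and Sox2ot. Malat1 was 8.18-fold, Sox2ot 5.84-fold, Kcnq1ot1 2.72-fold, Meg3 2.18-fold and Gas5 1.88-fold higher in replicate 2 than in replicate 1. Of 18458 genes, 232 had a larger ratio than Malat1 and 564 a larger one than Sox2ot. Rmst (0.848-fold), Neat1 (1.23-fold) and Snhg1 (1.25-fold) differed little. The 2 Ythdf1 IPs were closer, from 0.747-fold for Kcnq1ot1 to 1.91-fold for Sox2ot. Mitochondrial ribosomal RNA took 0.377% and 0.409% of counts in the Ythdf1 IPs, against 17.3% and 16.7% in the inputs. The sum of 4 endothelial markers was 158 and 156 CPM in the Ythdf1 IPs and 83.5 and 84.8 CPM in the Ythdf2 IPs, against 38.9 and 39.2 CPM in the inputs. Most of it was Kdr, a receptor of endothelial cells, with 4608 and 3914 counts in the Ythdf1 IPs, against 997 and 1037 in the inputs. Cldn5 had 287 and 210 counts in the Ythdf1 IPs, against 101 and 57 in the inputs. Flt1 had 7 and 4 counts in the Ythdf1 IPs, against 14 and 12 in the inputs. Pecam1 had 11 and 0 counts in the Ythdf1 IPs and 0 in both Ythdf2 IPs, against 7 and 7 in the inputs. The part of these markers in the results was not tested.

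**Figure D2:**
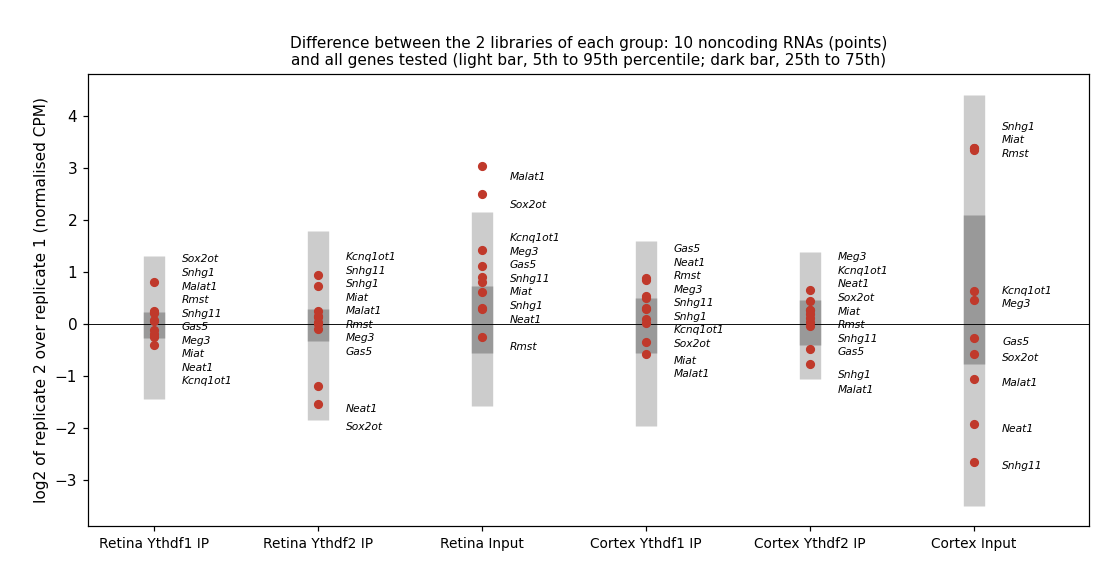
Log2 of replicate 2 over replicate 1 in each of the 6 groups, for the 10 RNAs (points, with names in the same order beside them) and for all 18458 genes (light bar from the 5th to the 95th percentile, dark bar from the 25th to the 75th). In the retina input, Malat1 and Sox2ot lie above the light bar; in the cortex input the bars are widest, and Snhg1, Miat and Rmst lie at 3.35 to 3.39.

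In the retina Ythdf2 IP, none of the 10 RNAs passed the test, although all 10 log2 fold changes were below 0 with all libraries. The test called 2.04% of all genes, and 4 of the 10 had an unadjusted p under 0.05. The median of the 10 was -1.33, against 0.00 over all genes and -0.42 over long noncoding genes. In the 6 retina libraries alone it was -1.30, against 0.06 over all genes and -0.49 over long noncoding genes. With retina input replicate 2 left out, 8 of the 10 were below 0 and their median was -0.13, against 0.00 over long noncoding genes. The 3 snoRNA hosts lay under both inputs. Gas5 had 22.3 and 20.9 CPM in the Ythdf2 IPs, against 49.5 and 93.0 CPM in the inputs (log2 fold change -1.72 ± 0.48, edgeR adjusted p = 0.0959). Snhg11 had 3.29 and 5.52 CPM in the Ythdf2 IPs, against 11.6 and 20.6 CPM in the inputs (-1.87 ± 0.70), and Snhg1 had 3.49 and 4.15 CPM, against 11.3 and 14.1 CPM in the inputs (-1.73 ± 0.73). These 3 hosts and Neat1 were the 4 RNAs with both IPs under both inputs, a share to read beside 25.9% of all genes. The 3 hosts were called with the library labelled cortex input replicate 1 left out (13.5% of genes), with cortex input replicate 2 left out (12.7%) and in the 6 retina libraries alone (20.2%).

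The nuclear RNAs ran from -2.01 to -0.01 in log2 fold change with Ythdf2. Malat1 had 450 and 497 CPM in the Ythdf2 IPs, against 417 and 3409 CPM in the inputs, so that both IPs lay between the inputs. Its log2 fold change was -2.01 ± 0.93 with all libraries and 0.19 without retina input replicate 2. Meg3 had 48.0 and 48.2 CPM in the Ythdf2 IPs, against 35.8 and 77.8 CPM in the inputs, and Rmst 5.41 and 5.57 CPM, against 5.98 and 5.07 CPM in the inputs. Both were at the level of the inputs, with log2 fold changes of -0.24 ± 0.49 and -0.01 ± 0.73. Sox2ot (-1.91 ± 0.77), Kcnq1ot1 (-0.94 ± 0.55), Neat1 (-0.86 ± 0.68) and Miat (-0.35 ± 0.79) did not pass either, and with retina input replicate 2 left out Sox2ot was at -0.136 and Kcnq1ot1 at -0.0450.

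**Figure D3:**
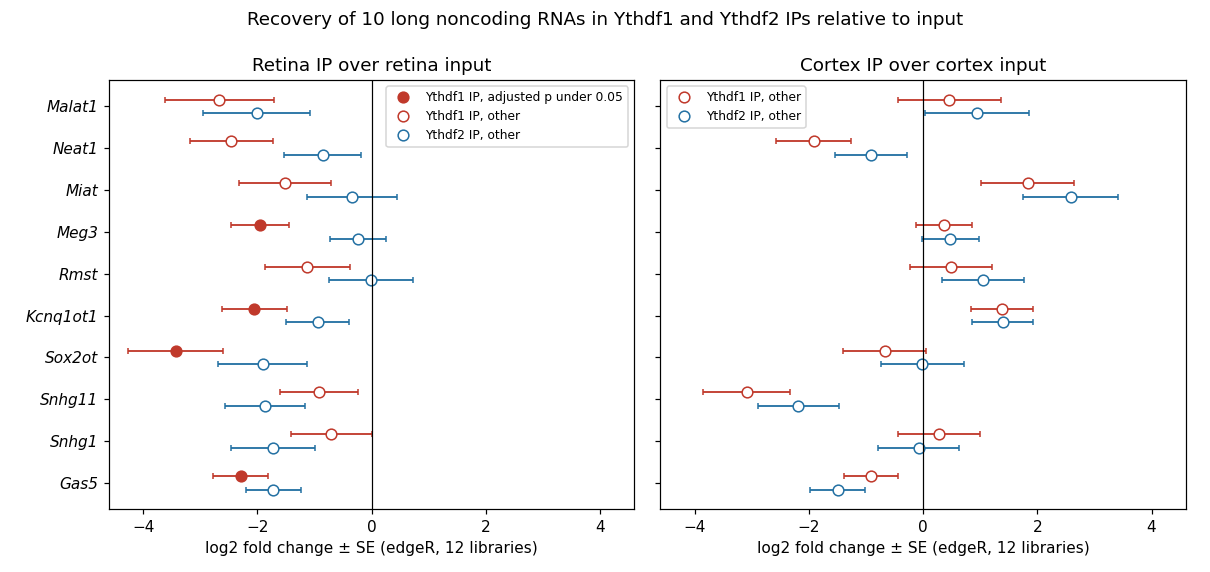
Log2 fold change over the input of the same tissue with its SE, for the retina (left) and the cortex (right), in Ythdf1 IPs (red) and Ythdf2 IPs (blue); filled points passed the edgeR test at an adjusted p under 0.05. The 4 filled points are Meg3, Kcnq1ot1, Sox2ot and Gas5 in the retina Ythdf1 IP, and all retina points lie at or left of 0. In the cortex Miat, Kcnq1ot1, Malat1, Meg3 and Rmst lie right of 0 with both antibodies. Snhg11, Gas5, Neat1 and Sox2ot lie at or left of 0 with both, and Snhg1 lies on either side.

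Set directly against each other in the retina, the Ythdf1 IP held less of 8 of the 10 RNAs than the Ythdf2 IP, and more of Snhg11 and Snhg1, with no overlap between the groups in any of the 10. Among all genes, 25.4% were lower without overlap and 32.6% higher. None of the 10 passed the edgeR test, and neither did any other gene (0 of 18458, or 0%; 2211 genes and 1 of the 10 at an unadjusted p under 0.05), whereas DESeq2 called 663 genes (3.59%) and 1 of the 10. Meg3 had 15.3 and 14.2 CPM in the Ythdf1 IPs, against 48.0 and 48.2 CPM in the Ythdf2 IPs, the largest separation (log2 difference -1.71 ± 0.50, edgeR adjusted p = 0.232). Neat1 (-1.60 ± 0.74), Sox2ot (-1.52 ± 0.82) and Miat (-1.17 ± 0.80) followed. Snhg1 had 7.11 and 8.50 CPM in the Ythdf1 IPs, against 3.49 and 4.15 CPM in the Ythdf2 IPs (1.03 ± 0.72), and Snhg11 differed by 0.96 ± 0.69. When the library labelled cortex input replicate 1 was dropped, Meg3 was called (adjusted p = 0.0172; 6.02% of genes), and in the 6 retina libraries alone Meg3, Miat and Rmst were (9.13% of genes); over all alternatives the adjusted p of Meg3 ran from 0.00773 to 1.00.

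In the cortex, none of the 10 RNAs passed the test in either IP, and they did not share a direction. The edgeR test called 0.00542% of all genes with Ythdf1 and 0.0108% with Ythdf2, and 4 of the 10 had an unadjusted p under 0.05 in each. DESeq2 called 1 of the 10 with Ythdf1 (7.3% of genes) and 3 with Ythdf2 (12% of genes). Miat had 79.8 and 63.4 CPM in the Ythdf1 IPs and 113 and 129 CPM in the Ythdf2 IPs, against 3.44 and 36.4 CPM in the inputs. All 4 IPs lay above both inputs, and the lower input is the library that goes against its label. The log2 fold change was 1.83 ± 0.81 with Ythdf1 and 2.59 ± 0.83 with Ythdf2 (edgeR adjusted p = 0.304 and 0.135). Without that library it was 0.96 ± 0.42 with Ythdf1 and 1.72 ± 0.44 with Ythdf2, and the second passed (adjusted p = 0.0252, 9.30e-06 to 0.981 over the alternatives; 7.48% of genes called).

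Kcnq1ot1 was the other RNA above both inputs with both antibodies. It had 33.2 and 35.6 CPM in the cortex Ythdf1 IPs and 29.3 and 40.1 CPM in the Ythdf2 IPs, against 10.3 and 16.03 CPM in the inputs. Its log2 fold change was 1.38 ± 0.54 with Ythdf1 and 1.39 ± 0.54 with Ythdf2, and 1.08 and 1.11 with only the other cortex input. Malat1 had 1748 and 1178 CPM in the Ythdf1 IPs and 2572 and 1520 CPM in the Ythdf2 IPs, against 1432 and 695 CPM in the inputs. Only its Ythdf2 IPs cleared both inputs (log2 fold change 0.94 ± 0.91, and 1.55 ± 0.88 with only the second input). Meg3 (0.36 ± 0.49 with Ythdf1, 0.48 ± 0.49 with Ythdf2) overlapped its inputs, and gave 0.13 and 0.26 with only the second. Rmst had 9.66 and 14.01 CPM in the Ythdf1 IPs and 16.7 and 18.2 CPM in the Ythdf2 IPs, against 1.42 and 15.01 CPM in the inputs. Its log2 fold change with Ythdf1 was 0.49 ± 0.72 with both inputs and -0.37 ± 0.36 with only the second.

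Snhg11 and Gas5 lay under both cortex inputs with both antibodies. Snhg11 had 0.732 and 0.923 CPM in the Ythdf1 IPs and 1.52 and 1.56 CPM in the Ythdf2 IPs, against 12.5 and 1.95 CPM in the inputs. The first input, whose mature neuron markers were high, stood far above the second. With it left out the log2 fold changes were -1.28 ± 0.47 with Ythdf1 and -0.35 ± 0.44 with Ythdf2, and with all libraries -3.09 ± 0.76 and -2.18 ± 0.72. Gas5 moved less with that library. It had 10.7 and 19.8 CPM in the Ythdf1 IPs and 10.3 and 10.1 CPM in the Ythdf2 IPs, against 31.4 and 26.3 CPM in the inputs (-0.92 ± 0.47 and -1.50 ± 0.48; -0.81 ± 0.43 and -1.37 ± 0.42 without it). Neat1 had 2.025 and 3.69 CPM in the Ythdf1 IPs and 5.13 and 6.20 CPM in the Ythdf2 IPs, against 17.2 and 4.49 CPM in the inputs, and its log2 fold change with Ythdf2 was -0.91 ± 0.63 with both inputs and 0.33 ± 0.53 with only the second. Sox2ot and Snhg1 gave log2 fold changes of -0.67 ± 0.73 and 0.28 ± 0.72 with Ythdf1 and of -0.01 ± 0.72 and -0.08 ± 0.71 with Ythdf2. With only the second input these were -0.39 and -0.55 with Ythdf1 and 0.28 and -0.88 with Ythdf2.

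Without overlap, 2 of the 10 were higher and 4 lower with Ythdf1 in the cortex, beside 21.1% and 14.3% of all genes. With Ythdf2, 4 were higher and 2 lower, beside 27% and 17.4%. Over long noncoding genes the shares were 23.5% and 6.64% with Ythdf1 and 38.9% and 5.9% with Ythdf2. The median of the 10 was 0.32 with Ythdf1 and 0.23 with Ythdf2, against 0.33 and 0.66 over long noncoding genes and 0.00 and 0.04 over all genes. With only the second cortex input the median of the 10 was -0.38 with Ythdf1, where 6 were below 0, and 0.27 with Ythdf2, against 0.00 and 0.41 over long noncoding genes. Between the 2 antibodies in the cortex, no gene of 18458 was called by edgeR (739 genes and 0 of the 10 at an unadjusted p under 0.05; 72 genes, or 0.39%, and 0 of the 10 by DESeq2), and the log2 differences of the 10 ran from -0.998 for Neat1 to 0.58 for Gas5. Scaled to library totals, the median of all genes stood at -0.58 with Ythdf1, at 0.72 with Ythdf2 and at -1.33 between the antibodies, so directions in the cortex are relative to the scaling. Under that scaling the Gas5 difference between the antibodies was -0.80 and the Neat1 log2 fold change with Ythdf2 was 0.84.

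**Figure D4:**
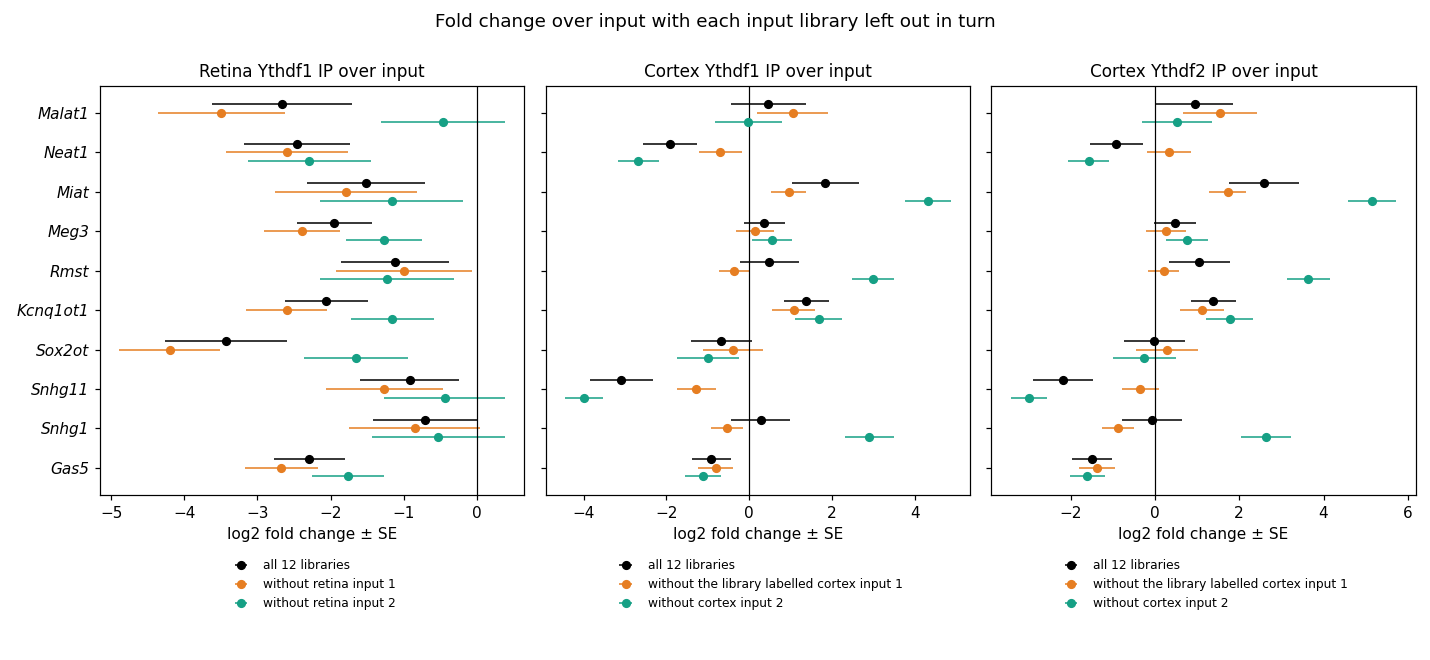
Log2 fold change over input with its SE for the retina Ythdf1 IP, the cortex Ythdf1 IP and the cortex Ythdf2 IP, with all 12 libraries (black) and with the first (orange) or second (green) input of that tissue left out. Malat1 in the retina lies at -3.49 without the first input and at -0.46 without the second; in the cortex, Miat, Rmst, Snhg1 and Snhg11 move most, and Gas5 little.

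Enrichment over input was also compared between tissues, as the retina log2 fold change minus the cortex one. The 4 comparisons above share their inputs with this one. With Ythdf1, 9 of the 10 differences were below 0 and the median was -1.96, against -0.08 over all genes and -1.11 over long noncoding genes. None passed (0.00542% of genes were called; 5 of the 10 at an unadjusted p under 0.05; DESeq2 called 3 of the 10 and 6.22% of genes). With all libraries Kcnq1ot1 differed most, by -3.43 ± 0.78 (edgeR adjusted p = 0.126), being lower than input in retina IPs and higher in cortex IPs. With the library labelled cortex input replicate 1 left out the difference was -3.12 and passed (adjusted p = 0.0255, 0.00115 to 1.00 over the alternatives), as did Miat at -2.46 (adjusted p = 0.0225; 3.52% of genes were called); Malat1, at -3.71, was then the lowest and did not pass. Leaving out retina input replicate 2 gave a median of -0.96, with Miat lowest at -2.98. Snhg11 was the exception in sign, at 2.17 ± 1.00 with all libraries and 0.37 without the library labelled cortex input replicate 1. With Ythdf2, 8 of the 10 were below 0 with a median of -1.36, beside a median of -1.23 and 74.9% below 0 over long noncoding genes. None passed (0.0325% of genes; 3 of the 10 at an unadjusted p under 0.05; none by DESeq2, which called 2.44% of genes), and the lowest were Malat1 (-2.96 ± 1.30), Miat (-2.93 ± 1.13) and Kcnq1ot1 (-2.33 ± 0.77). The median stayed at -1.36 with the library labelled cortex input replicate 1 left out. It was -0.47 with retina input replicate 2 left out, against -0.98 over long noncoding genes, and Malat1 was then at -0.79.

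The inputs give the levels of the RNAs in the tissues themselves. Such levels in bulk tissue do not tell fewer cells of a type from less RNA per cell. Neat1 was the single RNA that passed between retina and cortex inputs, where 7.52% of genes were called, 4.01% as lower and 3.51% as higher in the retina. It had 1.46 and 1.80 CPM in the retina inputs, against 17.2 and 4.49 CPM in the cortex inputs (log2 fold change -2.71 ± 0.68, edgeR adjusted p = 0.0354). Once the library labelled cortex input replicate 1 was dropped it was -1.49 ± 0.52. With a term for the replicate number the edgeR adjusted p was 0.0571, and over all alternatives it rose to 0.585. Leaving out any library but cortex input replicate 2 ended the call. The fit without cortex input replicate 2 has only the library that goes against its label as cortex input.

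When the library labelled cortex input replicate 1 was left out, 6 of the 10 differed between the tissues, as did 19.9% of genes. Snhg11 had 11.6 and 20.6 CPM in the retina inputs, against 1.95 CPM in the remaining cortex input (log2 fold change 3.02 ± 0.51, edgeR adjusted p = 0.000749). Miat, known in retinal precursors, had 131 and 201 CPM in the retina inputs, against 36.4 CPM (2.17 ± 0.45), Meg3 had 35.8 and 77.8 CPM, against 19.4 CPM (1.52 ± 0.49), and Gas5 49.5 and 93.0 CPM, against 26.3 CPM (1.42 ± 0.47). These 4 RNAs were higher in the retina. Kcnq1ot1 had 2.09 and 5.67 CPM in the retina inputs, against 16.03 CPM (-2.07 ± 0.49), and Rmst 5.98 and 5.07 CPM, against 15.01 CPM (-1.47 ± 0.36), so that these 2 were lower in the retina. The adjusted p of the last 5 lay between 0.00325 and 0.0428. With all libraries Snhg11 (1.203 ± 0.692) and Rmst (-0.61 ± 0.72) overlapped between the tissues, since that library held 12.5 CPM of Snhg11 and 1.42 CPM of Rmst. The IPs of the same tissues showed Kcnq1ot1 at 0.793 to 2.68 CPM in the retina and 29.3 to 40.1 CPM in the cortex, a wider gap than in the inputs.

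Other snoRNA hosts were read beside Gas5, Snhg1 and Snhg11. Of 17 listed, 15 were tested. In the retina Ythdf1 IP 3 were called lower and none higher, where 5.23% of all genes were called lower. Without overlap, 14 lay under both inputs, beside 30.1% of all genes and 33.1% of long noncoding genes. Above both inputs lay 1, beside 11.6% of long noncoding genes. The median log2 fold change was -1.51, against 0.00 over all genes. Snhg8 had 3.89 and 2.38 CPM in the Ythdf1 IPs, against 24.5 and 21.6 CPM in the inputs, and fell by 2.88 ± 0.58 on the log2 scale (edgeR adjusted p = 0.0193). Zfas1, a host antisense to a zinc finger gene, fell by 2.02 ± 0.50 (adjusted p = 0.0319) and Snhg3 fell by 3.83 ± 0.98 (adjusted p = 0.0356). Leaving out either retina input or either Ythdf1 IP of the retina ended these 3 calls, and under a replicate term for each tissue the adjusted p was 0.0659 for Zfas1 and 0.0519 for Snhg3. In the retina Ythdf2 IP none of the 15 passed, 12 lay under both inputs, beside 25.9% of all genes, and the median was -1.31. In the cortex the medians were 0.23 with Ythdf1 and -0.80 with Ythdf2, with none called. Between retina and cortex inputs all 15 were above 0 with a median of 1.63, and Snhg16, named 1810032O08Rik in the annotation, was called (2.40 ± 0.64, adjusted p = 0.0448; 0.0541 under a term for the replicate number; 2.39 and adjusted p = 0.0199 with only the second cortex input).

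Other nuclear or nuclear-enriched long noncoding RNAs gave calls in both directions. Of 17 listed, 15 were tested, and in the retina Ythdf1 IP 1 rose and 1 fell. In all 11 were below 0, and the median was -0.59. Without overlap, 7 lay under both inputs and 3 above them, beside 33.1% and 11.6% of long noncoding genes. Of all genes, 30.1% lay under both inputs. Peg13, an imprinted RNA, had 45.2 and 46.3 CPM in the Ythdf1 IPs, against 12.9 and 9.96 CPM in the inputs, and rose by 2.00 ± 0.48 on the log2 scale (edgeR adjusted p = 0.0279). Jpx, an activator of Xist, had 0.708 and 0.869 CPM in the IPs, against 3.20 and 4.50 CPM in the inputs, and fell by 2.29 ± 0.55 (adjusted p = 0.0282). Among all genes 3.57% were called higher and 5.23% lower in this comparison. Leaving out any retina library ended the calls of Peg13 and Jpx. Under a replicate term for each tissue the adjusted p was 0.0619 for Peg13 and 0.0559 for Jpx. Xist, which coats the inactive X chromosome, had 2.28 and 3.51 CPM in the IPs, against 11.5 and 17.7 CPM in the inputs (-2.33 ± 0.82, adjusted p = 0.0931), and Tug1 42.3 and 46.8 CPM, against 4.31 and 19.6 CPM in the inputs (1.90 ± 0.63, adjusted p = 0.0808). None of the 15 passed with Ythdf2 in the retina (median -0.56) or with either antibody in the cortex (medians 0.63 and 1.21). Between retina and cortex inputs Mir124a-1hg, the host of a neuronal microRNA, was higher (3.94 ± 0.48, adjusted p = 0.00177; 3.67 with only the second cortex input) and Pantr1 lower: it was at 0 in both retina inputs, against 9.96 and 9.80 CPM in the cortex inputs.

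Long noncoding RNAs known from the cytoplasm were few. Of Norad, Oip5os1 and H19, none passed in any comparison. Norad, named 2900097C17Rik in the annotation, had 153 and 164 CPM in the retina Ythdf1 IPs and 300 and 328 CPM in the Ythdf2 IPs, against 39.0 and 86.6 CPM in the inputs, with log2 fold changes of 1.34 ± 0.67 and 2.32 ± 0.69 (edgeR adjusted p = 0.220 and 0.114). All 4 IPs lay above both inputs. Oip5os1, named 1700020I14Rik, had 28.1 and 31.1 CPM in the retina Ythdf1 IPs and 133.5 and 127 CPM in the Ythdf2 IPs, against 12.2 and 79.4 CPM in the inputs. H19 went the other way and lay under both inputs. It had 4.6 and 3.32 CPM in the retina Ythdf1 IPs and 24.1 and 22.6 CPM in the Ythdf2 IPs, against 47.5 and 39.5 CPM in the inputs. Of the 3, 2 were below 0 in the retina with Ythdf1 (median log2 fold change -0.629) and 1 with Ythdf2 (median 1.51). Of 9 mRNAs of speckle and paraspeckle proteins none passed, with a median of -0.89 in the retina Ythdf1 IP. Son, a protein of the speckle core, had 82.4 and 90.2 CPM in those IPs, against 17.6 and 29.7 CPM in the inputs (log2 fold change 1.87 ± 0.57).

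Reads of a host and of its snoRNAs overlap on the same strand, so how they were split depends on the counting, whose strand setting is unknown here. Of the snoRNA genes inside the 3 hosts, 6 were tested and none was called. Snord22, inside Snhg1, held 2810 counts over all libraries, more than Snhg1 itself with 2747. It had 9.84 and 9.03 CPM in the retina Ythdf1 IPs and 5.71 and 8.77 CPM in the Ythdf2 IPs, against 15.98 and 29.0 CPM in the inputs. Inside Gas5, the snoRNA gene Gm22357 held 806 counts, Snord80 137, Gm22489 74 and Mir5117 58. Inside Snhg1, Gm24452 held 282 and Gm25894 230. The Sox2 gene, on the strand of Sox2ot, held 15256 counts against 2218 for Sox2ot, and shares no exonic base with it. Antisense partners were small beside Miat, Rmst and Kcnq1ot1. Gm26953 held 428 counts at Miat (45256 counts), Gm26700 63 at Rmst (5509 counts) and Kcnq1 36 at Kcnq1ot1 (9691 counts). At Sox2ot the antisense genes Gm42693 and Gm20515 held 203 and 131 counts, a larger part of its 2218. On the strand of Sox2ot, Gm42692 held 218 and Gm27611 78. On the strand of Rmst, Gm27753 held 136, Gm27999 98 and Gm27544 71. Zbtb37, antisense to Gas5 (10796 counts), held 5058 counts with no shared exonic base.

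Genes whose log2 CPM over the 12 libraries ran most like each RNA were named by Pearson's r, which describes these libraries and shares their depth and scaling. The 12 include the library labelled cortex input replicate 1, which goes against its label, and r was not computed without it. Nearest to Malat1 were Tmf1 (0.949), Sclt1 (0.936) and Zfp933 (0.936), to Neat1 Chm (0.945), Ube3a (0.941) and F5 (0.939), and to Miat Slc2a4 (0.953), Mybl1 (0.953) and Cfp (0.947). Meg3 ran with Gt(ROSA)26Sor (0.887), Ormdl1 (0.869) and Nup35 (0.869), Rmst with Ctps (0.953), Ebf2 (0.951) and Pola1 (0.948), Kcnq1ot1 with Nfib (0.976), Eya4 (0.968) and Prkg2 (0.963), and Sox2ot with Mier1 (0.959), Zmynd11 (0.953) and Cenpc1 (0.949). Among the hosts, Snhg11 ran with Pabpc1l2b-ps (0.941), Dnal4 (0.939) and Fxyd1 (0.937), Snhg1 with Atpaf2 (0.960), Ppil1 (0.956) and Arrdc1 (0.956), and Gas5 with Mbd2 (0.938), Pet100 (0.938) and another host, Snhg8 (0.937). Between the 10 themselves, Neat1 and Sox2ot were most alike (0.907), followed by Malat1 and Sox2ot (0.867).

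Length and GGACT density are 2 properties that the choice of the RNAs did not use. The 18426 genes compared are not independent replicates. In the retina the log2 fold change was higher for genes of greater exonic length (Spearman's rho 0.308 with Ythdf1 and 0.353 with Ythdf2). In the cortex rho was -0.0232 and 0.0723. All cortex values in this paragraph use the library labelled cortex input replicate 1, which goes against its label, and were not computed without it. Whether the tissues differ in these relations was not tested. Genes with over 10 kb of exonic length had a median of 0.46 in the retina Ythdf1 IP. Neat1, Meg3, Sox2ot and Kcnq1ot1, all over 10 kb by this measure, had -2.46, -1.95, -3.43 and -2.06. For Sox2ot the measure joins the exons of 18 transcripts, the longest of which has 3486 bases. Those between 1 and 3 kb had a median of -0.41, where Snhg1 had -0.70. With GGACT per kb the log2 fold change had a rho of 0.189 for Ythdf1 and 0.0993 for Ythdf2 in the retina, and of 0.0208 and 0.0402 in the cortex. Genes without GGACT (2251, many of them short) had a median of -1.31 in the retina Ythdf1 IP, and genes with 2 or more per kb (1960, Miat among them) a median of 0.00.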

How the data were processed

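RNA from RNA immunoprecipitates and their inputs was sequenced in 12 libraries, 6 groups of 2, with stranded libraries made from 100 ng of RNA, per the labels' protocols. Reads were mapped to GRCm38 with STAR 2.5 and counted with HTSeq, per the submitters' processing notes. No source used here gives the annotation release or the counting by strand. The deposited tables hold raw read counts per gene and FPKM per gene for 52550 genes, both made by the authors. Of these IDs, 52403 matched GENCODE M21 (GRCm38), which gave symbols, positions, exons and transcript sequences, and 147 did not.

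The counts were fitted across all genes with edgeR 4.0.16 (R 4.3.3; TMM scaling, robust quasi-likelihood F-test, two-sided) in 1 model with a mean for each group and 6 residual degrees of freedom. Genes passed the filter with at least 10 counts by filterByExpr and 15 in total, which left 18458. The 9 comparisons were adjusted by Benjamini-Hochberg over all genes tested, with calls at an adjusted p under 0.05, and each SE was taken from the log2 fold change and F (their ratio, with F under a square root). No label says that replicates came from separate animals, so p-values measure only the spread between these samples. CPM are TMM-normalised with no prior count, and 3 counts correspond to 0.0283 to 0.356 CPM. TMM factors ran from 0.234 to 3.16. The fit was run on simulated counts with the same spread for all genes and no library that goes against its label. That run cannot show how the fit handles the cortex inputs.

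Alternatives were DESeq2 1.42.0 and its size factors, library and protein-coding totals, no filter, limma 3.58.1 on log2(FPKM + 1) and log2(FPKM + 0.1), each library left out, each tissue alone and a replicate block; a replicate block within tissue was chosen after seeing the data. The series' design text says that each replicate holds an input and its IPs, which pairs libraries of the same number. Their deviations from the group means correlated at -0.0762 to 0.0582 between groups.

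The members and the gene lists were chosen with earlier results of these data known. All 10 members are named, with the 3 genes most like each in log2 CPM (prior count 2). From each list the text takes up to 3 called genes with the smallest p, or the 2 of highest level where none is called, and overlapping genes with at least 50 counts. H19 and Kcnq1 are given beyond this rule, H19 so that its whole list is shown. A gene of the speckle and paraspeckle list that this rule names is not reported here.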

Additional observations from a re-analysis of the deposited data

How the results depend on the processing

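Of 2123 alternative values for 98 results, 1864 stayed on the same side of the threshold, 92 came to pass it, 141 no longer passed and 26 are counted as reversed; 62 of the values not counted as reversed also changed sign, with both values within their SEs. The cause was not tested. For the retina Ythdf1 IP, 1625 genes and 4 of the 10 RNAs were called; library totals called 0 and 0, protein-coding totals 2 of the 10, DESeq2 3583 genes and 6 of the 10, log2(FPKM + 1) 25 genes and 0 of the 10, log2(FPKM + 0.1) 28 and 0, no filter 6 of the 10, a replicate block within tissue 674 and 0, and the tissue alone 5410 and 10. For the retina Ythdf2 IP (377 and 0) library totals called 2 genes, protein-coding totals 205, no filter 852, DESeq2 1579 genes and 1 RNA, FPKM 20 and 16 genes, the replicate block 250, the block within tissue 183 and the tissue alone 2909 genes and 3 RNAs. For the cortex Ythdf1 IP (1 and 0) the counts of genes were 2 with DESeq2 size factors, 5 with library totals, 1108 with no filter, 1348 with DESeq2, 4 and 3 with FPKM and 0 in the tissue alone, and no filter and DESeq2 each called 1 RNA. For the cortex Ythdf2 IP (2 and 0) they were 4 with library totals, 1366 with no filter (2 RNAs), 2214 with DESeq2 (3 RNAs), 180 and 37 with FPKM, 1 under either block and 0 in the tissue alone. Between the antibodies, 0 genes were called in either tissue, and 227 in the retina and 43 in the cortex with no filter, 663 (1 RNA) and 72 with DESeq2, 1 in the retina with log2(FPKM + 1), 30 and 1 in the cortex with FPKM, and 1313 (3 RNAs) in the retina alone. For the tissue difference with Ythdf1 (1 gene), size factors called 5, library totals 0, protein-coding totals 2, no filter 1008 (2 RNAs), DESeq2 1149 (3 RNAs), FPKM 0 and 0, the block 2 and the block within tissue 0. With Ythdf2 (6 genes) library totals called 0, protein-coding totals 3, no filter 637, DESeq2 451, log2(FPKM + 1) 0 and the block within tissue 2. Between inputs (1388 genes, 1 RNA) library totals called 359 genes and 0 RNAs, no filter 2622 and 3, DESeq2 3415 and 5, size factors 3 RNAs, FPKM 102 and 157 genes with 0 RNAs, the block 0 RNAs and the block within tissue 488 genes and 0 RNAs.

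Leaving out 1 library in turn gave these ranges of genes and of the 10 RNAs called: 0 to 5504 and 0 to 10 for the retina Ythdf1 IP, 0 to 2730 and 0 to 3 for the retina Ythdf2 IP, 1 to 5011 and 0 to 6 for the cortex Ythdf1 IP, 1 to 5619 and 0 to 7 for the cortex Ythdf2 IP, 0 to 1249 and 0 to 3 between antibodies in the retina, 0 to 143 and 0 to 0 in the cortex, 0 to 5102 and 0 to 6 for the tissue difference with Ythdf1, 0 to 4315 and 0 to 4 with Ythdf2, and 135 to 5780 and 0 to 6 between inputs. The replicate block ended the calls of Kcnq1ot1 in the retina Ythdf1 IP and of Neat1 and Snhg16 between inputs and changed no other call of a named RNA. Among the 10 RNAs, protein-coding totals put 7 below 0 in the retina Ythdf2 IP. Among calls in the retina Ythdf1 IP 59.4% were lower, and 44.2% with protein-coding totals; the shares were 86.2% and 65.9% with Ythdf2, and between inputs 53.3%, 78.8% with library totals and 42.0% with protein-coding totals.

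Leaving out 1 library in turn reversed these log2 values, given as lowest and highest. Malat1 ran from -2.85 to 0.19 in the retina Ythdf2 IP and from -1.34 to 1.70 between inputs, with 0.19 and -1.34 for retina input replicate 2. Most other reversals came with a cortex input, the first at -0.37 and -0.55 and the second at 2.98 and 2.90 for Rmst and Snhg1 in the cortex Ythdf1 IP. In the cortex Ythdf2 IP Neat1 ran from -1.57 (second) to 0.33 (first) and Snhg1 from -0.88 (first) to 2.64 (second). With the second left out, the only cortex input is the library that goes against its label. In the tissue difference with Ythdf2 Neat1 ran from -1.19 (first) to 0.62 (second) and Snhg11 from -1.53 (first) to 1.03 (second), and between inputs Rmst ran from -1.47 (first) to 2.04 (second). Sox2ot between inputs ran from -2.52 for retina input replicate 2 to 0.0310 for retina input replicate 1. Library totals gave 0.84 for Neat1 in the cortex Ythdf2 IP, -0.80 for Gas5 between antibodies in the cortex and -1.62 for Snhg11 in the tissue difference with Ythdf2. With FPKM, in the cortex Ythdf2 IP Neat1 gave 0.27 and 0.73, Sox2ot 0.55 and 1.27, Snhg1 1.60 and Gas5 0.0474; Gas5 between antibodies gave -0.63 and -0.74, Snhg11 -0.0215 in the tissue difference with Ythdf1, and in that with Ythdf2 Neat1 gave -0.30 and -0.94 and Snhg11 -0.70 and -1.41. Depth limits Neat1, Sox2ot and Kcnq1ot1 most in the retina, where Neat1 had 7 to 51 counts in Ythdf1 IPs and inputs.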
